A study of Mus musculus with 12 samples.

Results

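The nuclear genes of the mitochondrial respiratory chain were read across RNA-seq libraries of mouse mesangial cells (MMCs), the contractile support cells of the kidney glomerulus. The members were the genes whose symbols begin with Ndufa, Ndufb, Ndufc, Ndufs, Ndufv, Uqcr, Cox4 to Cox8 or Atp5, or equal Sdha, Sdhb, Sdhc or Sdhd, and 96 of the 25230 genes in the count files matched. The symbol rule itself uses no measured value, but it was set with earlier results of these data known. Of the 96, 84 code for subunits, alternative isoforms included, 8 for complex I assembly factors and 1 (Cox7a2l) for a supercomplex factor, and the rest are 2 extra gene copies and 1 pseudogene. By complex, 47 members belonged to complex I, 4 to complex II, 8 to complex III, 20 to complex IV and 17 to complex V. The subunits that mitochondrial DNA encodes were not analysed here.

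The study compared wild-type (WT) MMCs with MMCs from mice in which a CRISPR-Cas9 deletion around the transcription start of lncMGC, the host transcript of a microRNA cluster, had been made (lncMGC-KO). Both sets of primary MMCs came from mice of the C57BL/6 background, were grown from pooled glomeruli, and the KO animals were of 1 line. Cells were kept in serum depletion (SD) or given TGF-β, a profibrotic cytokine, for 24 h at a dose of 10 ng/ml. The 4 resulting groups were named WT-SD and KO-SD without, and WT-TGF and KO-TGF with, the cytokine, at 3 libraries a group, and the labels do not say whether these were separate cultures or mice, so the p-values measure the spread between these libraries. The lncMGC transcript itself was not analysed here, so each direction by genotype is that of the libraries as labelled.

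As background, complexes I and II pass electrons from NADH and succinate to ubiquinone, complex III passes them on to cytochrome c, and complex IV passes them to oxygen. Complexes I, III and IV pump protons as they do so, and complex V (ATP synthase) uses the gradient to make ATP. Complex II is wholly nuclear-encoded, while the other complexes join nuclear subunits to a few made inside the mitochondrion. Mitochondrial change in glomerular cells is a known feature of diabetic kidney disease, for which TGF-β on MMCs is a common culture model.

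Depth was even, with 19898050 to 22827706 reads counted on genes per library, of which the members held 0.404% to 0.421%. The composition of the libraries was not even. The 50 highest genes of a library took 14% to 14.8% of its counts in WT-SD, 17.9% to 18.2% in WT-TGF, 16.2% to 16.8% in KO-SD and 21.3% to 21.6% in KO-TGF. Reads that fell outside genes made up 15.2% to 15.4%, 12.2% to 12.5%, 12.7% to 13.4% and 10.3% to 10.9% in the same order. The 8 mesangial and smooth muscle markers summed to 2564 to 2710 CPM (counts scaled to the size of the library) in WT-SD and to 10874 to 10961 in KO-TGF, with 5749 to 5918 in WT-TGF and 4942 to 5110 in KO-SD, and Thy1 was at 0 in both SD groups. Markers of other kidney cells moved with genotype and treatment. The sum of 6 podocyte markers was 466 to 475 CPM in WT-SD, 462 to 481 in WT-TGF, 221 to 230 in KO-SD and 208 to 223 in KO-TGF. Nphs1 was at 0 in KO-TGF. The 9 macrophage markers summed to 37 to 40.6, 19.6 to 23.5, 8.26 to 9.92 and 2.33 to 2.72 CPM, and Adgre1, Tyrobp and C1qa were at 0 in the KO groups. The 6 endothelial markers summed to 33.4 to 33.8, 20.4 to 22.8, 17.5 to 18.7 and 9.39 to 11 CPM, with Cdh5 at 0 outside KO-SD. The 9 tubular markers summed to 76.8 to 82.6, 22.9 to 26.3, 24.7 to 26 and 12.5 to 13.5 CPM, with Slc34a1, Umod and Aqp2 at 0. Their part in the results was not tested, and in bulk RNA fewer cells of a type and less RNA per cell cannot be told apart.

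The directions given here depend in part on how the libraries were scaled. CPM values were scaled by TMM, which sets the typical gene equal between libraries, unless library size alone is named. With library size alone, the median of all genes tested stood at -0.18 on the log2 scale for TGF-β in WT cells, -0.23 for TGF-β in KO cells, -0.07 for genotype in SD and -0.12 for genotype under TGF-β. Under TMM the same medians were 0.00, -0.03, 0.02 and 0.00. The subunits' distance from the median of all genes was 0.17, 0.17, 0.06 and 0.09 in that order. A change of scaling shifts all genes of a comparison alike. This distance is therefore the same under both scalings by construction, and its equality is no check of the result.

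Of the 96 members, 81 passed the filter on low values and were tested, namely 43 of complex I, 4 of complex II, 8 of complex III, 13 of complex IV and 13 of complex V. The other 15 were not tested. Cox4i2, Cox7b2, Cox8b, Cox8c and Ndufs5 had no count in any library, and Ndufb4c had at most 1. The tissue isoforms Cox7a1 and Ndufa4l2 and the copy Ndufa11b reached 4, 4 and 6 counts. Among the 15 stood subunits that every respiring cell needs. Cox7c had 6 to 16 counts per library, Atp5g1 15 to 35, Atp5g2 4 to 13, Atp5l 2 to 10 and Atp5md 12 to 36. These genes have near-identical copies elsewhere in the genome, and the share of their 51-base windows found in another gene with at most 2 mismatches was 54.5% for Cox7c, 66.1% for Atp5g1, 87.4% for Atp5g2, 69% for Atp5l, 41.3% for Atp5md and 56.6% for Ndufs5. The pseudogene Ndufs5-ps, which had no length for the filter, had 115 to 168 counts where Ndufs5 had 0. The counts keep uniquely placed reads, so the values of such members are uncertain. In all, 31 members, 23 of them tested, shared at least 20% of their windows.

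Per kilobase of transcript, the complexes were not equal in level. In WT-SD the median over the tested subunits was 34.3 CPM per kilobase for complex I, 37.6 for complex II, 38.8 for complex III, 68.1 for complex IV and 61.8 for complex V. The highest single levels were those of Atp5b, the catalytic beta subunit of ATP synthase, at 259 CPM per kilobase in WT-SD, 351 in WT-TGF, 298 in KO-SD and 431 in KO-TGF. Cox4i1, the subunit through which complex IV senses ATP, led complex IV at 176, 178, 194 and 205 CPM per kilobase.

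The share of each complex in all subunit counts of a library needs no scaling, and it moved in the same direction with TGF-β in both genotypes. The share of complex V was 35.9% ± 0.212 (SD, n = 3) in WT-SD, 38.4% ± 0.196 in WT-TGF, 37.5% ± 0.2 in KO-SD and 40.4% ± 0.149 in KO-TGF. With Atp5b left out of complex V and of the total, an alternative chosen after seeing the data, the share of complex V was 26% ± 0.121, 26.4% ± 0.0964, 26.9% ± 0.237 and 27.1% ± 0.0686 in the same order. Complex II went the other way, from 10.3% ± 0.19 to 8.95% ± 0.0376 in WT cells and from 9.59% ± 0.115 to 8.19% ± 0.341 in KO cells. Complex I fell as a share from 31.3% ± 0.131 to 29% ± 0.127 and from 30.3% ± 0.0511 to 27.8% ± 0.119. For complexes I, II and V the 4 groups did not overlap with each other in any library. Complex III went from 8.67% ± 0.136 to 9.31% ± 0.0494 and from 8.51% ± 0.151 to 9.05% ± 0.129, and complex IV from 13.9% ± 0.0617 to 14.4% ± 0.0946 and from 14.1% ± 0.0612 to 14.5% ± 0.177. Without Atp5b the mean shares of complexes I to IV moved with TGF-β in these same directions in both genotypes, complex I from 36.1% to 34.6% and from 35.5% to 34% and complex IV from 16% to 17.2% and from 16.5% to 17.7%. With Atp5b included, the TGF-β and SD libraries of a genotype did not overlap for complexes III and IV. Between genotypes, WT-TGF and KO-TGF overlapped for complex IV and WT-SD and KO-SD for complex III. The summed CPM of the 84 subunits was 3694 ± 47, 4129 ± 45.2, 3933 ± 53.8 and 4531 ± 68.7 under TMM in the WT pair (SD, then TGF-β) and the KO pair, and 3976 ± 34, 3982 ± 52.1, 4019 ± 72.8 and 4018 ± 48.4 with library size alone. Summed over the subunits, CPM was higher with TGF-β under TMM, and level with SD with library size alone. The rise under TMM was uneven. Atp5b alone went from a mean of 496 to 672 CPM in WT and from 570 to 826 in KO cells. The summed CPM of complex II went from 379 ± 3.03 to 370 ± 2.88 and from 377 ± 7.94 to 371 ± 11.8.

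**Figure D1:**
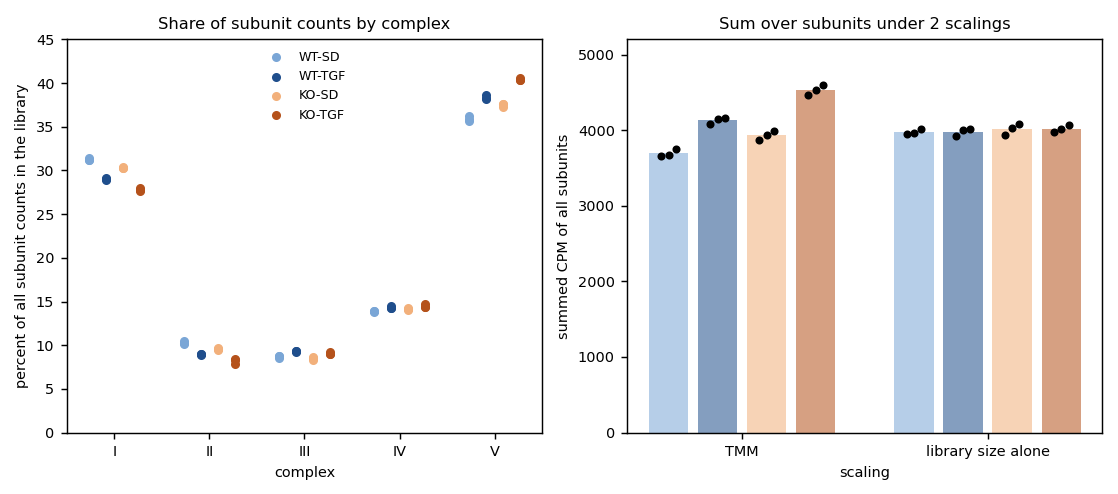
Left, percent of all subunit counts of a library that fell on each complex (y axis) in the 4 groups, 1 point per library. Right, summed CPM of the 84 subunits under TMM and with library size alone, with bars for group means and points for libraries. The share of complex V rises from 35.9% in WT-SD to 40.4% in KO-TGF (26% to 27.1% without Atp5b), and the sum differs between groups under TMM (3694 to 4531) while it lies between 3976 and 4019 with library size alone.

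The first comparison asks how the chain responds to TGF-β in each genotype. In WT MMCs, 42 of the 81 tested members were higher and 8 lower with TGF-β (FDR below 0.05), where 36.0% of all 11528 genes tested were called higher and 36.4% lower. In KO MMCs, 41 were higher and 8 lower, where 34.9% of all genes were higher and 39.1% lower. The split turned with library size alone, to 11 higher and 25 lower members in WT cells and 11 higher and 30 lower in KO cells, while all genes went to 22% higher and 53.9% lower in WT cells and 20.1% and 57.9% in KO cells. The median log2 fold change of the subunits was 0.17 in WT and 0.15 in KO cells under TMM, beside 0.00 and -0.03 for all genes. Changes were small. A fold over 2 was reached by 1 member in each genotype, Cox6a2 in WT and Cox6b2 in KO cells, where 9.92% and 13.5% of all genes passed that limit. The WT and KO comparisons share no library. Of the 81 members, 32 (39.5%) were higher in both, beside 30.1% of all genes, 6 (7.41%) were lower in both, beside 31.9% of all genes, and 1 (Cox6a2) was called in opposite directions. The KO call of Cox6a2 was lost with library size alone.

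**Figure D2:**
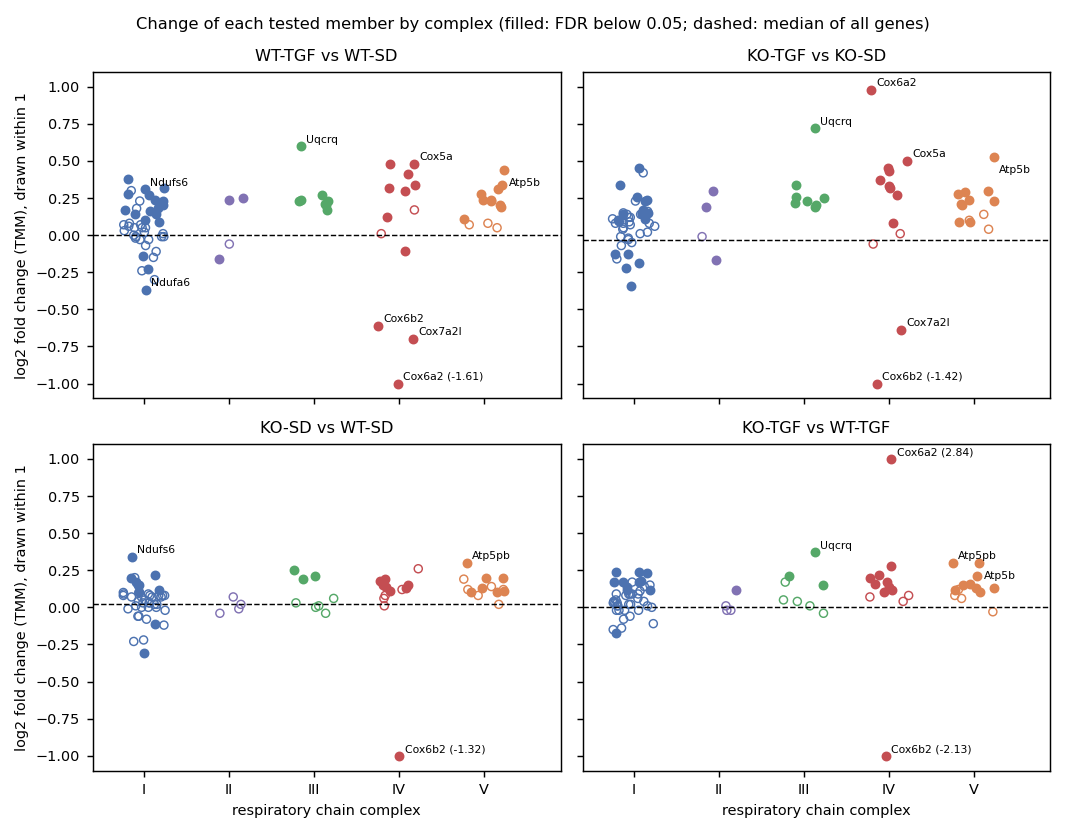
Log2 fold change (TMM) of each tested member (points) by complex in the 4 comparisons between groups, with filled points for FDR below 0.05 and a dashed line for the median of all genes. Values past 1 are drawn at the edge with the value in brackets. The complex III points all lie above the line with TGF-β in both genotypes, and Cox7a2l lies far below its complex, but with library size alone all points sit lower and 1 complex III member passes the test with TGF-β.

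**Figure D3:**
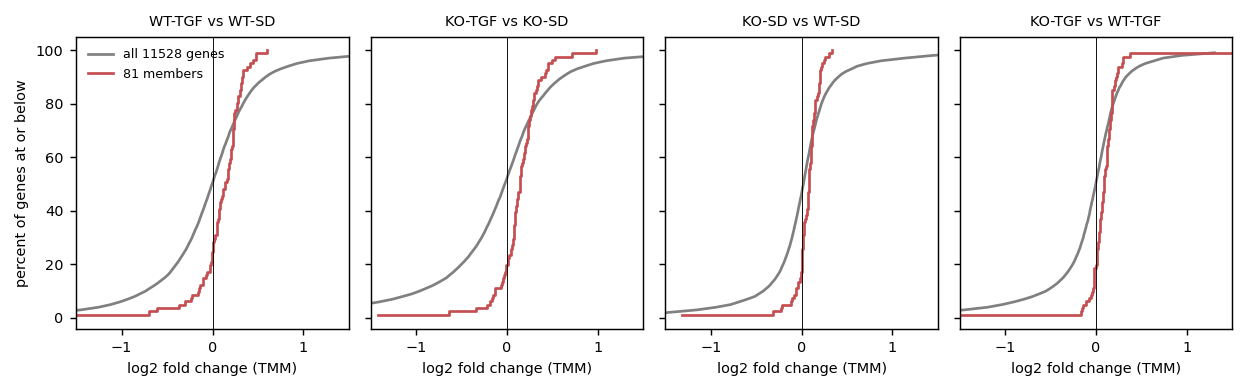
Percent of genes (y axis) at or below each log2 fold change (TMM, x axis) for the 81 tested members and all 11528 genes tested. The members span a narrower range than all genes and their curve lies to the right below 0, with medians of 0.14 and 0.14 for TGF-β in WT and KO cells and 0.08 and 0.09 for genotype in SD and under TGF-β. With library size alone both curves move left by the same amount.

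In complex III all 8 tested subunits rose with TGF-β in WT cells under TMM, by 0.17 to 0.60, and all 8 in KO cells, by 0.19 to 0.72, while with library size alone 1 of the 8 passed in each genotype. That subunit was Uqcrq, a small subunit of complex III that lies beside the cytochrome b core. Uqcrq was at 32.1, 28.9 and 32.6 CPM in WT-SD, 44.4, 48.6 and 48.4 in WT-TGF, 35.8, 36.8 and 38.3 in KO-SD and 60.6, 60.3 and 62.2 in KO-TGF. Its 4 groups did not overlap, and KO-TGF stood highest. The rise with TGF-β was 0.60 (SE 0.0487, adjusted p = 3.06e-12) in WT and 0.72 (SE 0.0467, adjusted p = 8.94e-15) in KO cells on the log2 scale, and 0.43 and 0.52 with library size alone. Uqcrc1 and Uqcrc2, the large matrix-facing proteins, moved less, Uqcrc1 by 0.27 and 0.23 and Uqcrc2 by 0.20 and 0.25, and Uqcrfs1, the Rieske iron-sulfur protein, by 0.24 and 0.19. Scaled by library size alone, these 3 stood at 0.10, 0.03 and 0.07 in WT cells and 0.03, 0.05 and -0.02 in KO cells and missed the threshold. Per kilobase, Uqcrq stood at 48.8% ± 3.53 (SD, n = 3) of Uqcrc1 in WT-SD, 61.2% ± 2.94 in WT-TGF, 57.9% ± 3.11 in KO-SD and 81.5% ± 2.58 in KO-TGF, a ratio within a library that the scaling cannot move.

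In complex V, 10 of 13 tested subunits rose with TGF-β in each genotype under TMM, with medians of 0.23 and 0.21, and 3 and 1 with library size alone, where 2 and 3 fell. Atp5b was at 488, 489 and 509 CPM in WT-SD, 660, 690 and 668 in WT-TGF, 565, 578 and 569 in KO-SD and 813, 821 and 845 in KO-TGF. The 4 groups stood apart without overlap, in the order WT-SD, KO-SD, WT-TGF and KO-TGF. Its rise with TGF-β was 0.44 (SE 0.0244, adjusted p = 2.59e-16) in WT and 0.53 (SE 0.0243, adjusted p = 1.33e-18) in KO cells. Atp5a1, the alpha subunit that alternates with beta in the same ring, was at 376, 376 and 385 CPM in WT-SD and 385, 392 and 402 in WT-TGF, which overlap. Its change was 0.05 (adjusted p = 0.0576) in WT and 0.09 (adjusted p = 0.00195) in KO cells, where library size alone gave -0.11. Per kilobase, Atp5b stood at 169% ± 1.59 of Atp5a1 in WT-SD, 221% ± 6.46 in WT-TGF, 181% ± 1.61 in KO-SD and 247% ± 5.26 in KO-TGF, although the proteins work in equal number. Of the remaining subunits, Atp5g3, which codes for the proton-carrying c subunit, rose by 0.28 in both genotypes (0.11 and 0.08 with library size alone, where the KO value missed the threshold), Atp5d of the central stalk by 0.24 and 0.29, and Atp5pb of the peripheral stalk by 0.24 and 0.23. With library size alone Atp5d stood at 0.07 and 0.09 and Atp5pb at 0.06 and 0.03, and none of these passed. Atp5pb shared 42.5% of its windows with other genes. Atp5c1, the gamma subunit that turns inside the ring, stood at 0.07 (adjusted p = 0.0812) in WT and 0.09 (adjusted p = 0.032) in KO cells, with 51% of its windows shared. The KO value missed the threshold without KO-TGF replicate 1 (0.08), KO-SD replicate 2 (0.07) or KO-SD replicate 3 (0.06) and was -0.11 with library size alone.

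In complex IV, 7 of 12 tested subunits rose and 3 fell with TGF-β in WT cells and 9 rose and 1 fell in KO cells, and with library size alone 6 rose and 4 fell in each. Cox5a, which lies on the matrix side, was at 32.3, 33.1 and 34.3 CPM in WT-SD, 49, 44.4 and 45.4 in WT-TGF, 36.5, 36.9 and 35.7 in KO-SD and 51.2, 50.3 and 53 in KO-TGF. Every TGF-β library was above every SD library. Its rise was 0.48 (SE 0.0455, adjusted p = 9.7e-11) in WT and 0.50 (SE 0.0453, adjusted p = 2.32e-11) in KO cells, and 30.4% of its windows had a copy. Cox7b, needed to assemble the complex, was at 34.7, 37.1 and 34.8 CPM in WT-SD, 49.9, 48.8 and 49.7 in WT-TGF, 40.3, 39.5 and 38.4 in KO-SD and 49.5, 48.8 and 54.2 in KO-TGF. It rose by 0.48 and 0.37, and under TGF-β the genotypes differed by 0.04 (adjusted p = 0.452). Cox7a2, the ubiquitous form of subunit VIIa, rose by 0.41 and 0.33, Cox6a1 by 0.34 and 0.43, Cox6b1 by 0.32 and 0.45, and Ndufa4, a complex IV subunit despite its name, by 0.30 and 0.32. These 6 passed under both scalings in both genotypes. Outside complex IV, 3 more members did so, Uqcrq, Atp5b and the assembly factor Ndufaf4. Cox4i1 was at 128, 133 and 133 CPM in WT-SD and 128, 134 and 134 in WT-TGF, a difference of 0.01 (adjusted p = 0.741). In KO cells it changed by 0.08 (adjusted p = 0.0331), with overlapping libraries, a call lost without KO-TGF replicate 3 (0.08) or KO-SD replicate 1 (0.04), and by -0.12 with library size alone. Cox5b, the zinc-binding subunit, stood at 0.17 (adjusted p = 0.0826) in WT cells and rose by 0.27 (adjusted p = 0.00702) in KO cells, against 0.06 with library size alone, which missed the threshold. Cox8a, the ubiquitous form of subunit VIII, stood at 0.12 (adjusted p = 0.0206) and 0.01 (adjusted p = 0.84), and the WT value missed the threshold without WT-SD replicate 2 (0.08), WT-TGF replicate 2 (0.10) or any KO-TGF replicate (0.10) and was -0.05 with library size alone.

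The clearest fall was that of Cox7a2l, also called SCAF1, which links complexes III and IV into supercomplexes. C57BL/6 mice are known to carry a short form of this protein. Cox7a2l was at 43.5, 40.4 and 43.8 CPM in WT-SD, 26.9, 26.1 and 25.7 in WT-TGF, 46, 45.8 and 45.6 in KO-SD and 30.1, 29.2 and 29.3 in KO-TGF. All 6 TGF-β libraries lay below all 6 SD libraries. The fall was -0.70 (SE 0.0463, adjusted p = 2.26e-14) in WT and -0.64 (SE 0.0462, adjusted p = 1.62e-13) in KO cells, and the difference of the responses, 0.06, missed the threshold (adjusted p = 0.55). The paralog Cox7a2 moved up in the same libraries, at 31.3, 30.9 and 32.3 CPM in WT-SD, 39.7, 44 and 41.3 in WT-TGF, 33.6, 36.5 and 34.7 in KO-SD and 44.2, 41.6 and 46 in KO-TGF. Per kilobase, Cox7a2l went from 82.8% ± 2.46 of Cox7a2 to 38.6% ± 2.58 in WT cells and from 80.4% ± 3.44 to 41.2% ± 2.01 in KO cells. Of its windows, 23.5% had a copy elsewhere, against 7.22% for Cox7a2.

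**Figure D4:**
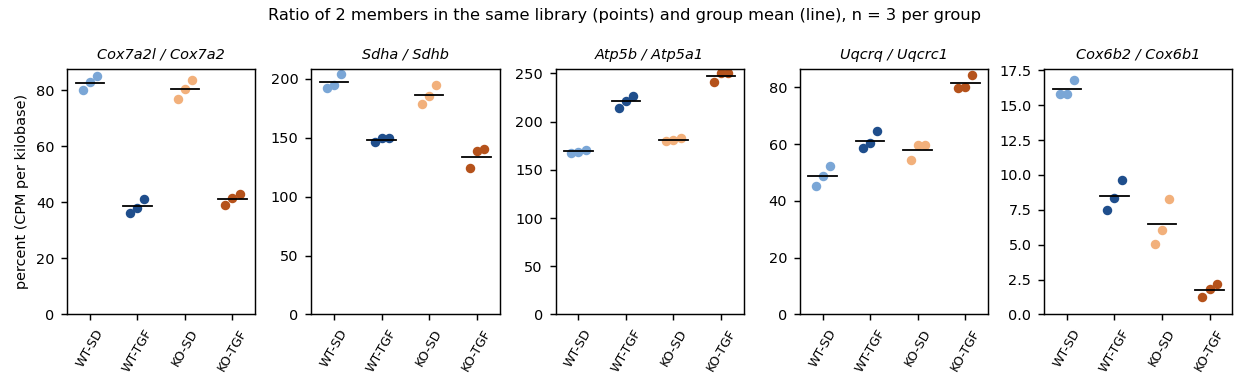
Ratio of the first member to the second in each library (points, in order of value) in percent of CPM per kilobase, with a line at the group mean. Ratios within a library do not depend on the scaling. Cox7a2l falls from 82.8% to 38.6% of Cox7a2 with TGF-β in WT cells, and Uqcrq reaches 81.5% of Uqcrc1 in KO-TGF.

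The subunits of complex II did not all move alike. Sdha, the flavoprotein that oxidises succinate, was at 213, 209 and 206 CPM in WT-SD, 185, 190 and 188 in WT-TGF, 212, 209 and 202 in KO-SD and 189, 191 and 174 in KO-TGF. It fell with TGF-β by 0.16 in WT (adjusted p = 3e-05) and by 0.17 in KO cells (adjusted p = 1.28e-05). Its iron-sulfur partner Sdhb was at 43.1, 40.5 and 42.1 CPM in WT-SD, 50, 49.8 and 49.5 in WT-TGF, 42.8, 44.5 and 44.6 in KO-SD and 53.7, 53.6 and 55 in KO-TGF. It rose by 0.25 (adjusted p = 1.93e-06) and 0.30 (adjusted p = 8.14e-08), and by 0.08 and 0.10 with library size alone, where only the KO value passed. Per kilobase Sdha went from 197% ± 5.99 to 148% ± 2.48 of Sdhb in WT cells and from 186% ± 8.19 to 134% ± 8.73 in KO cells. Of the membrane anchors, Sdhd rose by 0.24 and 0.19 (0.06 and -0.01 with library size alone, where neither passed), and Sdhc stood at -0.06 and -0.01 and missed it (adjusted p = 0.199 and 0.871). With library size alone Sdhc was called lower in both genotypes, at -0.24 and -0.21.

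Of the 35 tested subunits of complex I, 14 rose and 3 fell with TGF-β in WT cells and 11 rose and 4 fell in KO cells, with medians of 0.07 and 0.09, and with library size alone 12 fell in WT cells and 17 fell and 1 rose in KO cells. The 7 nuclear core subunits, which hold the flavin and the iron-sulfur clusters, had 4 and 5 rises, among them Ndufs1 by 0.14 and 0.14, Ndufv1 by 0.16 and 0.15 and Ndufs8 by 0.17 and 0.26. Ndufs1 with library size alone stood at -0.03 and -0.06, Ndufv1 at -0.01 and -0.05 and Ndufs8 at 0.00 and 0.06, none of them called, and in WT cells Ndufs1 missed the threshold without WT-TGF replicate 1 (0.10). The 28 supernumerary subunits, which surround the core, had 10 rises and 3 falls in WT cells and 6 rises and 4 falls in KO cells. Ndufa8 rose by 0.24 and 0.34 (0.07 and 0.14 with library size alone, where the WT value missed the threshold). Ndufb8, a subunit often used to mark assembled complex I, stood at -0.01 and 0.08 and missed the threshold, and with library size alone it was called lower in both, at -0.18 and -0.12.

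Under TMM the falls in complex I were those of accessory subunits. With library size alone core subunits were called lower as well. Among them were Ndufs3 in both genotypes (-0.18 and -0.23, with 74.5% of its windows shared) and Ndufs7 in KO cells (-0.25). Ndufa6, which binds the mitochondrial acyl carrier protein, was at 46.2, 45.6 and 49 CPM in WT-SD, 35.8, 37.8 and 35 in WT-TGF, 42.8, 45.2 and 42.1 in KO-SD and 36, 38.1 and 37.8 in KO-TGF. Each genotype's TGF-β libraries lay below its SD libraries. The fall was -0.37 (adjusted p = 1.67e-08) in WT and -0.22 (adjusted p = 0.000144) in KO cells. Ndufv3, an accessory subunit next to the NADH-binding flavoprotein, was at 38.9, 41.2 and 40.9 CPM in WT-SD, 34.9, 33.5 and 34.7 in WT-TGF, 45.6, 43.2 and 42.9 in KO-SD and 40.1, 39.9 and 40.7 in KO-TGF, a fall of -0.23 and -0.13. Ndufb11, of the membrane arm, fell by 0.14 and 0.19, and in KO cells it missed the threshold without KO-TGF replicate 2 (-0.12). Ndufa6, Ndufv3, Ndufb11, Sdha, Cox7a2l and Cox6b2 were the 6 members lower with TGF-β in both genotypes under TMM, and each was also called with library size alone. Of the 8 assembly factors under TMM, Ndufaf4 rose by 0.38 in WT and 0.45 in KO cells and Ndufaf8 fell by 0.34 in KO cells with overlapping libraries, and the other values missed the threshold. With library size alone Ndufaf4 stayed higher in both genotypes (0.21 and 0.25). Ndufaf3 (-0.41 and -0.36), Ndufaf7 (-0.17 and -0.19) and Ndufaf8 (-0.47 and -0.54) were then called lower in both, and Ndufaf1 (-0.28) in WT cells.

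**Figure D5:**
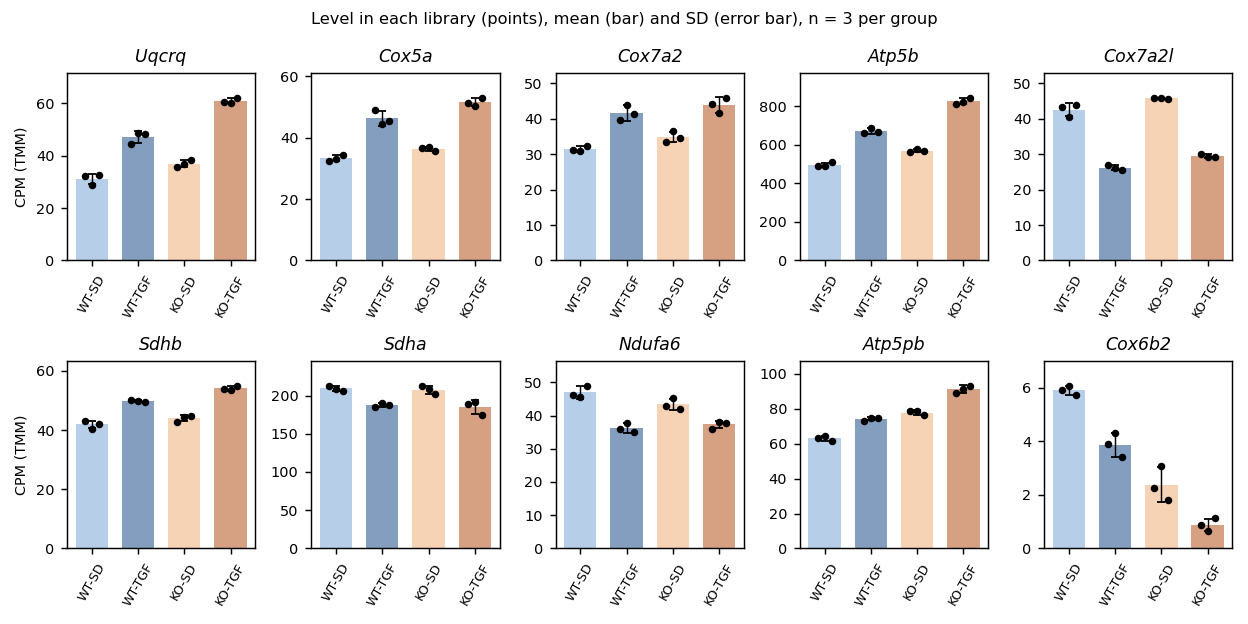
CPM (TMM) of 10 members in each library (points), with the group mean (bar) and SD (error bar), n = 3 per group. Uqcrq, Cox5a, Cox7a2, Atp5b and Sdhb stand higher with TGF-β in both genotypes, and Cox7a2l, Sdha, Ndufa6 and Cox6b2 lower. Uqcrq, Cox5a, Atp5b, Cox7a2l, Atp5pb and Cox6b2 also separate by genotype in both conditions. These directions hold with library size alone, though the WT rise of Sdhb (0.08) then misses the threshold. So do the genotype differences of Cox5a (0.04 in SD and 0.04 under TGF-β) and Cox7a2l (0.02 and 0.05).

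The second comparison asks how lncMGC-KO MMCs differ from WT MMCs. In SD under TMM, 25 of 81 members were higher and 3 lower in KO cells, where 30.9% of all genes were higher and 25.2% lower, so the share of members higher (30.9%) equalled that of all genes. Under TGF-β, 32 were higher and 2 lower, where 27.2% of all genes were higher and 27.8% lower. Library size alone gave 5 higher and 12 lower in SD and 7 higher and 15 lower under TGF-β, while all genes went to 19.7% higher and 38.5% lower in SD and 14.4% and 46.6% under TGF-β. The subunit medians were 0.08 and 0.09 under TMM and -0.01 and -0.03 with library size alone. A fold over 2 was reached by Cox6b2 in SD and by Cox6b2 and Cox6a2 under TGF-β, where 6.45% and 6.06% of all genes passed it. The SD count of 25 moved to 15 without WT-SD replicate 2 and 16 without KO-SD replicate 2. The 2 comparisons share no library, and 16 of the 81 members (19.8%) were higher in KO cells in both, the same share as of all genes (19.8%), while 1 (Cox6b2, 1.23%) was lower in both, beside 18.3% of all genes.

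By complex, the shares higher in KO cells under TMM were largest in complexes V and IV. In SD, 7 of 13 complex V subunits, 6 of 12 of complex IV, 3 of 8 of complex III and 8 of 35 of complex I were higher, and under TGF-β 9, 8, 3 and 9, while library size alone left 2, 1, 2 and 0 in SD and 2, 3, 1 and 1 under TGF-β. The 4 complex II values in SD ran from -0.04 to 0.07 and missed the threshold, and under TGF-β Sdhb passed at 0.12, against 0.00 with library size alone. Atp5pb, the b subunit that holds the ATP synthase stator in the membrane, was at 63.4, 64.1 and 61.6 CPM in WT-SD, 73.2, 74.9 and 74.6 in WT-TGF, 78.6, 78.5 and 76.3 in KO-SD and 89, 91.3 and 93.2 in KO-TGF. Every KO library lay above the WT libraries of its condition, and KO-SD also above WT-TGF. The difference was 0.30 in SD (adjusted p = 1.74e-08) and 0.30 under TGF-β (adjusted p = 2.02e-08). Uqcrq was higher in KO cells by 0.25 (adjusted p = 0.000124) and 0.37 (adjusted p = 2.48e-08), and Atp5b by 0.20 (adjusted p = 2.47e-08) and 0.30 (adjusted p = 5.89e-12). Cox6a1, at 65.4, 64.6 and 67.4 CPM in WT-SD, 85.4, 80.5 and 84.6 in WT-TGF, 75.4, 73.4 and 76.5 in KO-SD and 100, 101 and 103 in KO-TGF, was higher by 0.19 and 0.28, with 42.6% of its windows shared. These 4 were the members higher in KO cells in both conditions under both scalings.

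Other genotype differences varied in how firm they were. Ndufs6, a zinc-binding accessory subunit of complex I, was at 5.54, 5.59 and 5.68 CPM in WT-SD and 6.39, 7.84 and 7.03 in KO-SD, a rise of 0.34 (adjusted p = 0.00832) that missed the threshold without KO-SD replicate 2 (0.26) and with library size alone (0.25). Ndufaf1, an early assembly factor of complex I, was at 16.4, 17.6 and 16.8 CPM in WT-SD and 14.8, 13.1 and 12.9 in KO-SD, a fall of -0.31 (adjusted p = 0.000377). That fall was called in each of 12 fits that left out a library and with library size alone (-0.40). Ndufs7, a core subunit that carries the last iron-sulfur cluster before ubiquinone, was at 20.3, 20.4 and 21.2 CPM in WT-TGF and 17.2, 19.3 and 18.2 in KO-TGF. Its difference of -0.17 (adjusted p = 0.0328) missed the threshold in 5 of 12 fits that left out a library, those without WT-TGF replicate 1 (-0.17), 2 (-0.18) or 3 (-0.16) and without KO-TGF replicate 1 (-0.12) or 3 (-0.16). Cox4i1 was higher in KO cells by 0.14 in SD and 0.20 under TGF-β, and by 0.05 and 0.08 with library size alone, where the value under TGF-β passed.

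The members called with a fold over 2 were 2 alternative isoforms of complex IV. Cox6b2, known as the testis form of subunit VIb, had 128, 138 and 124 counts in WT-SD, 81, 95 and 68 in WT-TGF, 48, 63 and 39 in KO-SD and 16, 12 and 21 in KO-TGF. In CPM these were 5.91, 6.08 and 5.73, then 3.89, 4.3 and 3.41, then 2.24, 3.09 and 1.82, and then 0.87, 0.652 and 1.12. The 4 groups did not overlap and fell from WT-SD through WT-TGF and KO-SD to KO-TGF. Cox6b2 was lower in KO cells by -1.32 in SD (adjusted p = 1.2e-08) and by -2.13 under TGF-β (adjusted p = 9.77e-10), and lower with TGF-β by -0.61 in WT (adjusted p = 0.000262) and by -1.42 in KO cells (adjusted p = 5.58e-06). Per kilobase it went from 16.2% ± 0.587 of the ubiquitous Cox6b1 in WT-SD to 8.51% ± 1.09 in WT-TGF, 6.45% ± 1.65 in KO-SD and 1.75% ± 0.456 in KO-TGF. Cox6a2, the form of subunit VIa found in heart and skeletal muscle, had 12, 3 and 5 counts in WT-SD, 2, 0 and 4 in WT-TGF, 9, 5 and 9 in KO-SD and 17, 13 and 10 in KO-TGF. Its WT groups overlap, and KO-TGF lay above WT-TGF in each library. The fitted difference there was 2.84 (adjusted p = 0.000163), from at most 17 counts in a library. The fall of -1.61 with TGF-β in WT cells (adjusted p = 0.0438) missed the threshold without WT-SD replicate 1 (-0.88), WT-TGF replicate 1 (-1.63) or WT-TGF replicate 2 (-1.01). The rise of 0.98 in KO cells (adjusted p = 0.047) missed it without KO-TGF replicate 2 (1.01), KO-SD replicate 2 (0.77), KO-SD replicate 3 (1.09) or WT-SD replicate 3 (0.98). It also missed it with library size alone (0.78, adjusted p = 0.107).

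The third comparison asks whether the TGF-β response itself differs by genotype. The interaction passed in 3 members upward and 1 downward, where 8.67% of all genes were called upward and 16.6% downward. A difference over 2-fold was reached by Cox6a2, where 2.73% of all genes passed that limit. The median over the subunits was 0.02, beside -0.03 for all genes. The response of Atp5b was larger in KO cells by 0.09 (SE 0.0344, adjusted p = 0.0418). For Cox6b2 the difference was -0.81 (SE 0.287, adjusted p = 0.035) and for Cox6a2 2.58 (adjusted p = 0.0208). Each of these 3 calls was lost when some libraries were left out. Cox6b2 missed the threshold without KO-TGF replicate 1 (-0.76) or 2 (-0.60), KO-SD replicate 2 (-0.59), WT-TGF replicate 1 (-0.77) or 2 (-0.73), and WT-SD replicate 3 (-0.80). Atp5b missed it without WT-SD replicate 3 (0.07), WT-TGF replicate 3 (0.09) or KO-SD replicate 3 (0.09), and Cox6a2 without WT-SD replicate 1 (1.85) or WT-TGF replicate 2 (1.99).

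Promoters of members were read for motifs of the factors known to drive nuclear respiratory genes. RefSeq gave a 300-base window (250 bases before and 50 after the start, build GRCm38.p6) for 76 of the 96 members and for 27025 genes in all, and each motif was sought as exact letters on both strands. NRF1 (CGCATGCG) was in 14.5% of the member windows and in 2.07% of all. GABP (CCGGAAG) was in 25% and 9.93%, YY1 (AAGATGGC) in 14.5% and 3.19%, and ERR (TCAAGGTCA) in 2.63% and 0.466%. Under TMM, 27 members with a window were higher with TGF-β in both genotypes, while 9 members in all were so under both scalings. Of the 27, 7 held NRF1 (25.9%), 9 GABP (33.3%), 2 YY1 (7.41%) and 2 ERR (7.41%). Of the 40 other tested members, 2 held NRF1 (5%), 8 GABP (20%), 9 YY1 (22.5%) and 0 ERR. These shares are a description of letters in a window and were not tested. The 250 bases before the start are shown for Cox6a1, a member with 2 matches that rose with TGF-β and in KO cells (chr5:115348959-115349208, minus strand), for Atp5b, which rose likewise with none of the 4 (chr10:128083057-128083306, plus strand), for Cox7a2l, which fell with TGF-β (chr17:83514334-83514583, minus strand), and for Cox6b2, which fell with both (chr7:4753095-4753344, minus strand). Capitals mark motif matches, in Cox6a1 NRF1 at -161 and GABP on the opposite strand at -16 from the start.
Cox6a1: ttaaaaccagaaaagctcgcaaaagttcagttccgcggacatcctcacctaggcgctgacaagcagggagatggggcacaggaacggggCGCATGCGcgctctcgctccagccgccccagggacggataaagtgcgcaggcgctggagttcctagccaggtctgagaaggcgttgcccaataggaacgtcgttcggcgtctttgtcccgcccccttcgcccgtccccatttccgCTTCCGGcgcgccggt
Atp5b: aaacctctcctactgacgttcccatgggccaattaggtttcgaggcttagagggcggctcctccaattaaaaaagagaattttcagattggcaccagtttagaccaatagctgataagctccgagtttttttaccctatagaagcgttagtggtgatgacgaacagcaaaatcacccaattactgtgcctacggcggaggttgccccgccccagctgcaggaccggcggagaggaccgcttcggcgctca
Cox7a2l: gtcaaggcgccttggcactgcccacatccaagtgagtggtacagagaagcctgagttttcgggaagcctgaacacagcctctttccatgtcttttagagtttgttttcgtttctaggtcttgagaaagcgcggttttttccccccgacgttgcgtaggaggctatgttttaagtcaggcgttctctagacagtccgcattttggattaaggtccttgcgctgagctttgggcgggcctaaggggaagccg
Cox6b2: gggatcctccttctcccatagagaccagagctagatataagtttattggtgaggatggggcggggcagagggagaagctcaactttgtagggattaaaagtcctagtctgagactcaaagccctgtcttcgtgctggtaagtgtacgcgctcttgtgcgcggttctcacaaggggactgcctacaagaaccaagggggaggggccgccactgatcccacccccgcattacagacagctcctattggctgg

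The RNA of the factors themselves was read in the same fit, under TMM alone. With library size alone the median of all genes stood at -0.18 for TGF-β in WT and -0.23 in KO cells. Small rises such as that of Nrf1 may therefore depend on the scaling. Pprc1, a coactivator of the PGC-1 family that answers growth signals, rose with TGF-β from 65.7 ± 3.36 to 101 ± 2.85 CPM in WT (log2 0.62, adjusted p = 1.99e-14). In KO cells it went from 72.5 ± 4.04 to 106 ± 0.88 CPM (log2 0.55, adjusted p = 2.36e-13). Nrf1 rose by 0.24 (adjusted p = 0.000845) in WT and stood at 0.12 (adjusted p = 0.0839) in KO cells. Ppargc1b fell by 0.48 (adjusted p = 0.00235) in WT cells and stood at -0.10 (adjusted p = 0.564) in KO cells. Ppargc1a, the best known coactivator of the family, was below the filter, at 0.832 ± 0.161 CPM in WT-SD, 0.211 ± 0.108 in WT-TGF, 0.934 ± 0.143 in KO-SD and 0.324 ± 0.092 in KO-TGF. Yy1 fell by 0.10 (adjusted p = 0.0159) in WT cells and stood at -0.07 (adjusted p = 0.0591) in KO cells. Gabpa (0.03 and 0.02), Esrra (0.12 and -0.04) and Tfam (0.00 and -0.01) missed the threshold in both genotypes. Of the 18 tested biogenesis regulators, 5 rose and 3 fell in WT cells (27.8% and 16.7%, beside 36.0% and 36.4% of all genes) and 6 rose and 1 fell in KO cells (33.3% and 5.56%, beside 34.9% and 39.1%).

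Genes that serve the chain from outside the symbol rule were read in the same fit, under TMM alone and without a test of the lists. Cyc1, the cytochrome c1 subunit of complex III, rose with TGF-β by 0.27 and 0.23 and was higher in KO cells by 0.23 and 0.19. Atpif1, the inhibitor that blocks ATP synthase from running backwards, stood at 0.07 with TGF-β in WT cells and rose by 0.28 in KO cells, a difference of 0.21 (adjusted p = 0.00368). Of 39 tested assembly factors of complexes I to V, 15 rose and 7 fell with TGF-β in WT cells and 14 rose and 4 fell in KO cells, with medians of 0.07 and 0.08. These are 38.5% and 17.9% in WT and 35.9% and 10.3% in KO cells, beside 36.0% and 36.4%, and 34.9% and 39.1%, of all genes.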

How the data were processed

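RNA-seq libraries were prepared from polyadenylated RNA of MMCs (KAPA mRNA HyperPrep) and sequenced as 51-base single-end reads. The authors aligned the reads to mm10 with TopHat 2.1.1 and counted RefSeq genes with HTSeq-count 0.6.0, strand-specific and with a minimum alignment quality of 10. The deposited values are raw read counts per gene, 1 file per library for 12 libraries. Rows that name no gene were left out of library sizes and tests (10.26% to 15.38% of a library's reads outside genes, 11.16% to 11.74% not uniquely placed, 0.2253% to 0.2741% ambiguous).

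From these counts, TMM factors, CPM values and fold changes were computed with edgeR 4.0.16 in R 4.3.3. Genes over 1 RPKM in at least 1 library (11528) entered a quasi-likelihood fit over all 12 libraries without a replicate block, with Benjamini-Hochberg adjustment over all of them. A call was an FDR below 0.05, and a fold over 2 was counted separately. The interaction is the log2 response to TGF-β in KO minus that in WT cells. Same-numbered libraries of different groups deviated together with correlations of -0.0263 to 0.0764, none over 0.1. No duplicate libraries were found. The fit was tested on simulated data before use. Alternatives were library size alone, DESeq2 1.42.0 (size factors and Wald test), other filters, an exon length correction, a replicate block, the groups compared alone, and leaving out each library or the members with copies.

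A window was 51 bases of a transcript, counted as shared when another gene's transcript held it with at most 2 mismatches. Named genes were isoform pairs and families, 1 or more catalytic or core members of each complex, the 3 largest called changes in each direction of a comparison without overlap of libraries and with at least 5 CPM, and every call over 2-fold, with 8 regulators from the other lists. Atp5d, Ndufa8, Ndufs3, Ndufs8, Ndufv3, Ndufaf3, Ndufaf4, Ndufaf7, Ndufaf8, Cyc1, Atpif1, Idh3a, Pcx, Adm and Vegfa fall outside it, and their values were known when they were picked. The members and lists were chosen with earlier results of these data known. Counting intervals cover counting error only. Some genes are not reported here.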

Additional observations from a re-analysis of the deposited data

Results flagged for a closer look

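Atp5b, Cox6b2 and Cox6a2 responded to TGF-β to a different extent in KO and WT MMCs by the interaction term of the edgeR fit. The KO minus WT difference of the log2 response was 0.09 for Atp5b (adjusted p = 0.0418), -0.81 for Cox6b2 (adjusted p = 0.035) and 2.58 for Cox6a2 (adjusted p = 0.0208). Cox6a2 rests on at most 17 counts in a library and Cox6b2 on 12 to 21 counts in KO-TGF. With library size alone Atp5b stood at 0.06 and did not pass. The DESeq2 Wald test left Cox6b2 at -0.79 without a call. It also left the Cox6a2 changes with TGF-β, -1.67 in WT and 1.01 in KO cells, without a call.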

How the results depend on the processing

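With library size alone, the members called higher and lower were 11 and 25 (TGF-β in WT), 11 and 30 (TGF-β in KO), 5 and 12 (genotype in SD), 7 and 15 (genotype under TGF-β) and 1 and 2 (interaction), the subunit medians were -0.01, -0.05, -0.01, -0.03 and -0.01, and the log2 ratios of the summed subunit CPM, 0.16, 0.20, 0.09 and 0.13 under TMM, were 0.00, 0.00, 0.02 and 0.01. The median of all genes was also lower under that scaling, at -0.18, -0.23, -0.07, -0.12 and -0.06. Which scaling lies nearer the true levels was not tested. Library size alone also turned the sign of 14 named values. For TGF-β in WT cells these were Cox8a (-0.05), Ndufs1 (-0.03) and Ndufv1 (-0.01). For TGF-β in KO cells they were Atp5a1 (-0.11), Atp5c1 (-0.11), Cox4i1 (-0.12), Ndufs1 (-0.06), Ndufv1 (-0.05), Sdhd (-0.01) and Uqcrfs1 (-0.02). For genotype under TGF-β they were Atp5g3 (-0.02), Ndufa4 (-0.02), Ndufb8 (0.00) and Sdhb (0.00). The cause of the differences in the remaining settings was not tested either. For TGF-β in WT cells, the lower count was 5 of 83 with the CPM filter. It was 5 of the 58 tested members without copies (8.62%, beside 9.88% of the 81). The median was 0.19 with the CPM filter, 0.20 without a filter, 0.18 with the exon length correction and 0.13 without copies. For TGF-β in KO cells, the exon length correction gave 5 lower and a median of 0.24, and leaving out copies a median of 0.11. With that correction all genes went to 44% higher, 30.6% lower and a median of 0.08. For genotype in SD, the higher count was 14 of 81 with the DESeq2 Wald test and 16 of 80 with the compared groups alone. All genes called higher were then 26.1% and 27.1%. Without copies it was 16 of 58 members (27.6%, beside 30.9% of the 81). The median was 0.11 without a filter and with the length correction. For genotype under TGF-β, the length correction gave 49 higher, 1 lower and a median of 0.18. All genes shifted too under that correction, to 38.9% higher, 20.5% lower and a median of 0.07. Both DESeq2 settings gave 1 lower for that comparison. For the interaction, the higher count was 1 with the CPM filter and without a filter, 5 with DESeq2 size factors and 15 with the length correction. The length correction there called 18.6% of all genes higher and 11.5% lower, with a median of 0.05. The subunit median was 0.05, 0.05 and 0.08 with DESeq2 size factors, the Wald test and the length correction. The lower count was 0 with the Wald test (1 at an unadjusted p under 0.05). Leaving out 1 library gave 36 to 43 higher, 5 to 10 lower (5 without WT-SD replicate 1) and a median of 0.13 to 0.17 for TGF-β in WT cells, 37 to 46, 5 to 8 (5 without KO-TGF replicate 2) and 0.14 to 0.18 in KO cells, 15 to 26, 2 to 3 and 0.06 to 0.09 for genotype in SD, 25 to 33, 1 to 2 and 0.09 to 0.12 under TGF-β, and 1 to 5, 0 to 2 and 0.01 to 0.07 for the interaction. With the replicate number as a block the counts were 43 and 9, 42 and 8, 26 and 3, 32 and 2, and 3 and 1, and no call of a named gene changed, though the numbers do not pair the libraries. Of 1727 refits of 87 named values, 1580 kept the direction and the call, 133 lost the call and 14 turned sign. Low counts limit Cox6a2 and Cox6b2.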

Other observations

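As the background of the gene lists, all genes tested were called higher and lower in 36.0% and 36.4% (TGF-β in WT), 34.9% and 39.1% (TGF-β in KO), 30.9% and 25.2% (genotype in SD) and 27.2% and 27.8% (genotype under TGF-β). Of 76 tested proteins of the mitochondrial ribosome, which makes the subunits that mitochondrial DNA encodes, 37 rose and 3 fell in WT cells and 35 rose and 6 fell in KO cells (48.7% and 3.95%, then 46.1% and 7.89%), with medians of 0.15 and 0.15 beside 0.00 and -0.03 for all genes. Between genotypes 19 were higher and 5 lower in SD and 13 higher and 5 lower under TGF-β (25% and 6.58%, then 17.1% and 6.58%), with medians of 0.03 and 0.04. Of the 21 genes of the citric acid cycle and pyruvate entry, 9 rose and 5 fell with TGF-β in WT cells and 11 rose and 5 fell in KO cells (42.9% and 23.8%, then 52.4% and 23.8%). Idh3a, of the NAD-linked isocitrate dehydrogenase, rose by 0.63 and 0.73. Pcx, pyruvate carboxylase, fell by 1.24 and 1.61, and it was lower in KO cells by -0.60 in SD and -0.96 under TGF-β.

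Of 13 tested hypoxia-inducible genes, 8 rose and 3 fell with TGF-β in WT cells and 7 rose and 3 fell in KO cells (61.5% and 23.1%, then 53.8% and 23.1%). They ran from Adm, the adrenomedullin gene, at -1.87 and -3.46 to Vegfa at 1.14 and 1.51. In KO cells 10 were higher and 2 lower in SD, and 9 higher and 2 lower under TGF-β (76.9% and 15.4%, then 69.2% and 15.4%), with medians of 0.45 and 0.42 beside 0.02 and 0.00 for all genes. These lists were counted without a test of the list, and all values are under TMM.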
